A study of Mus musculus with 22 samples.

Results

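Lysosomal genes other than the cathepsins were followed through the step from spleen monocyte to macrophage and through loading of both cell types with oxidized low-density lipoprotein (ox-LDL). The set held 48 of the 55487 genes counted: 25 hydrolases and hydrolase cofactors, 7 membrane and other lysosomal proteins, and 16 subunits and accessory proteins of the vacuolar ATPase. Its members were chosen by gene symbol for their known place in the lysosome, but with earlier results of these data known. Every symbol matched a single gene in the files. Lysosomes are acid compartments in which hydrolases break down material brought in by endocytosis, macropinocytosis and autophagy. The vacuolar ATPase makes that compartment acid: its peripheral V1 sector splits ATP and turns a rotor that carries protons through the membrane-bound V0 sector. In macrophages this machinery degrades engulfed cells and lipoproteins, and the transcription factor TFEB and its relatives drive many of its genes together by binding a palindromic element known as the CLEAR motif.

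Bulk RNA sequencing covered 22 libraries from wild type male C57BL/6 mice: 6 of macrophages given ox-LDL, 5 of macrophages given vehicle, 5 of monocytes given ox-LDL and 6 of monocytes given vehicle. Macrophages had been made in culture from primary spleen monocytes with phorbol myristate acetate (PMA), an activator of protein kinase C, at 200 ng/mL for 5 days, and monocytes had received no PMA, so that cell type, PMA and time in culture cannot be told apart. The dose of ox-LDL was 50 µg/mL for 24 hours in either cell type. Ages are not in the labels, nor is it stated that replicate libraries are from different mice or cultures. The p-values therefore reflect only how far these libraries scatter, and that scatter may be technical.

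Library totals ran from 37330389 to 50257111 counts, and the lowest count of any member in any library was 96, for Atp6v0d2. Some monocyte libraries stood apart from the rest. Levels are given in CPM (counts per 1000000 of a library size rescaled by its TMM normalization factor). Summed markers of neutrophils reached 29545 to 45068 CPM in vehicle replicates 5 and 6 and ox-LDL replicates 10 and 11. They were 4770 to 5839 CPM in the other 7 monocyte libraries and at most 93.3 CPM in macrophages. Erythroid markers summed to 439 to 858 CPM in monocyte replicates 1, 2 and 7, against 6622 to 14419.9 CPM in the other 8. Dendritic cell markers summed to 7179 to 10365 CPM in ox-LDL monocytes and 7718 to 12669.9 CPM in vehicle monocytes, and to at most 17.2 CPM in macrophages. The sums of the B cell, T and NK cell, and mast cell lists were at most 54.3, 0.350 and 0.421 CPM in macrophages, and at least 225, 21.04 and 209 CPM in monocytes. Macrophage markers summed to 31914 to 44077 CPM in ox-LDL macrophages, 30574 to 39203 in vehicle macrophages, 9147 to 14255 in ox-LDL monocytes and 6303 to 9178 in vehicle monocytes. The monocyte list did not separate the cell types as its name says: its sum was higher in macrophages (2773 to 6777 CPM) than in monocytes (731 to 1892 CPM) with Csf1r as its largest part, while Ly6c2 averaged 1.30 and 1.28 CPM in ox-LDL and vehicle macrophages against 87.7 and 108 CPM in ox-LDL and vehicle monocytes. With vehicle, 9 of 9 neutrophil, 7 of 7 erythroid and 5 of 7 dendritic cell markers tested were lower in macrophages, and 9 of 9 macrophage markers higher. In bulk RNA, fewer cells of a type and less RNA per cell cannot be told apart, and the part these other cells play in the results below was not tested.

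Nearly the whole set was more abundant in macrophages. With vehicle, 40 of 48 members were higher in macrophages than in monocytes, 1 was lower and 7 did not pass the test (edgeR quasi-likelihood test, Benjamini-Hochberg adjusted p under 0.05). The background was broad, since 28.5% of the 16288 genes tested were called higher and 35.1% lower, 63.7% in either direction. The median log2 fold change of the members was 1.14, beside -0.09 for all genes tested. With ox-LDL, 39 members were higher, 3 lower and 6 not called, where 30.3% of 15825 genes were called higher and 35% lower, 65.4% in either direction, and the medians were 1.00 and -0.07. These comparisons share no library: 38 members were called higher in both, 1 lower in both, 4 in neither and 0 in opposite directions. Every library of macrophages exceeded every library of monocytes for 38 members with vehicle and 36 with ox-LDL, where 22.7% and 23.9% of all genes tested did so. Every macrophage library was lower for 1 member with vehicle, where 26.2% of all genes were. At an unadjusted p under 0.05 stood 42 members with vehicle and 43 with ox-LDL, beside 66.9% and 68.3% of all genes.

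**Figure D1:**
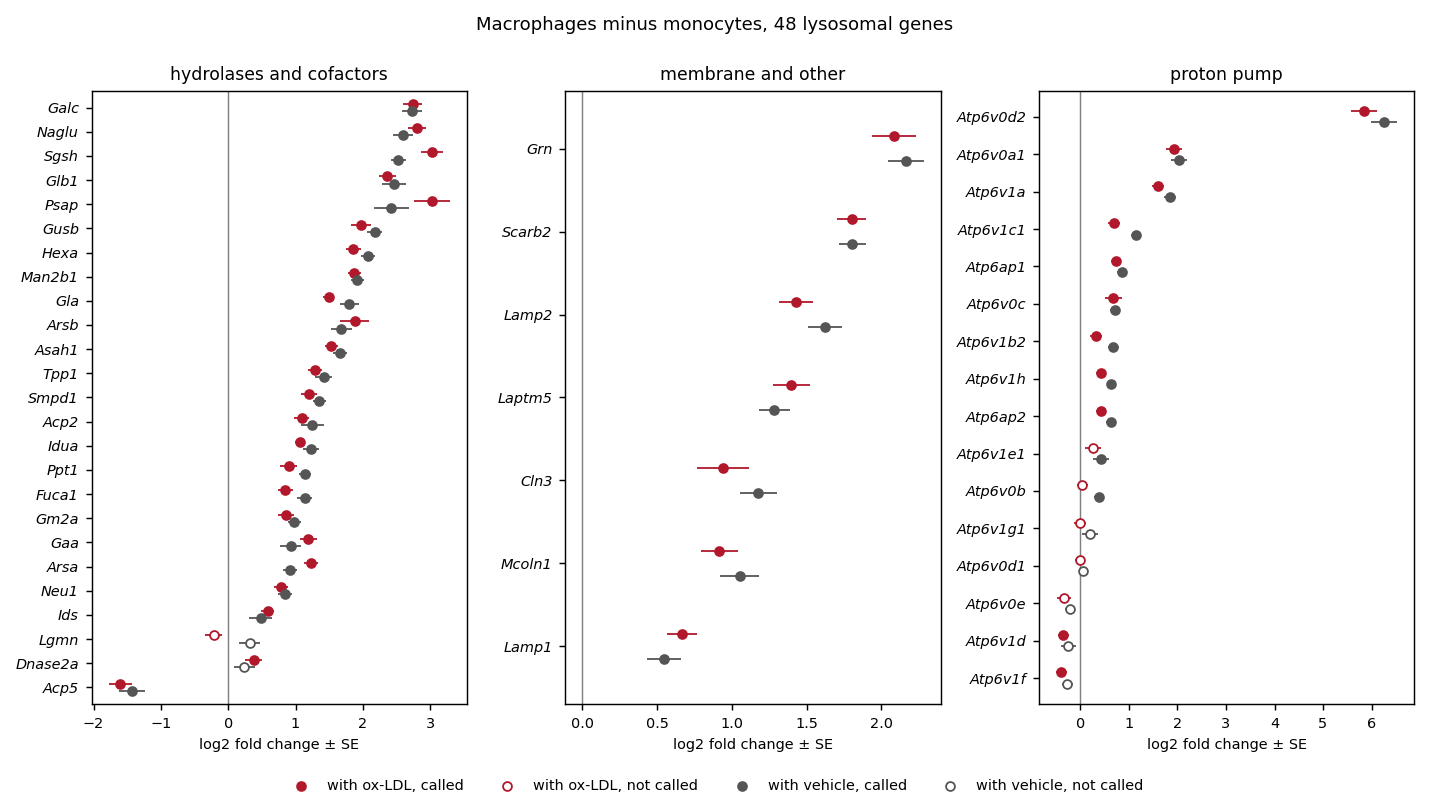
Log2 fold change of each of the 48 genes in macrophages over monocytes (x axis, ± SE), with ox-LDL (red) and with vehicle (grey), filled where the edgeR adjusted p was under 0.05. All 7 membrane genes and all hydrolases but Acp5, Lgmn and Dnase2a are filled and right of 0 in both, whereas the pump genes run from -0.39 to 6.26, with Atp6v0d2 highest.

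As a share of all counts, the 48 genes took 6.32 ± 0.478% in ox-LDL macrophages (SD, n = 6), 5.16 ± 0.555% in vehicle macrophages (n = 5), 2.00 ± 0.129% in ox-LDL monocytes (n = 5) and 1.84 ± 0.186% in vehicle monocytes (n = 6). Psap alone took 3.20 ± 0.489%, 2.04 ± 0.474%, 0.425 ± 0.200% and 0.399 ± 0.170% in the same order. The difference between ox-LDL and vehicle macrophages in the share of the set was thus mostly that of Psap. Per transcript length, on the TPM scale (length-corrected counts that add up to 1000000 in each library), Psap ranked first of the 48 in all 4 groups. It held 56.1 ± 3.90% of the members' summed TPM in ox-LDL macrophages, 44.7 ± 6.00% in vehicle macrophages, 23.2 ± 9.05% in ox-LDL monocytes and 23.9 ± 7.47% in vehicle monocytes. Behind Psap, Grn, Laptm5, Lamp1, Hexa and Lgmn filled the next 5 ranks in every group. The lowest rank was held by Arsb in all groups but vehicle monocytes, where Atp6v0d2 was lowest at 3.63 ± 1.40 TPM. Libraries of one group spread less in macrophages than in monocytes: the median over members of the SD of log2 CPM was 0.13 in ox-LDL macrophages and 0.11 in vehicle macrophages, against 0.22 in ox-LDL monocytes and 0.21 in vehicle monocytes.

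**Figure D2:**
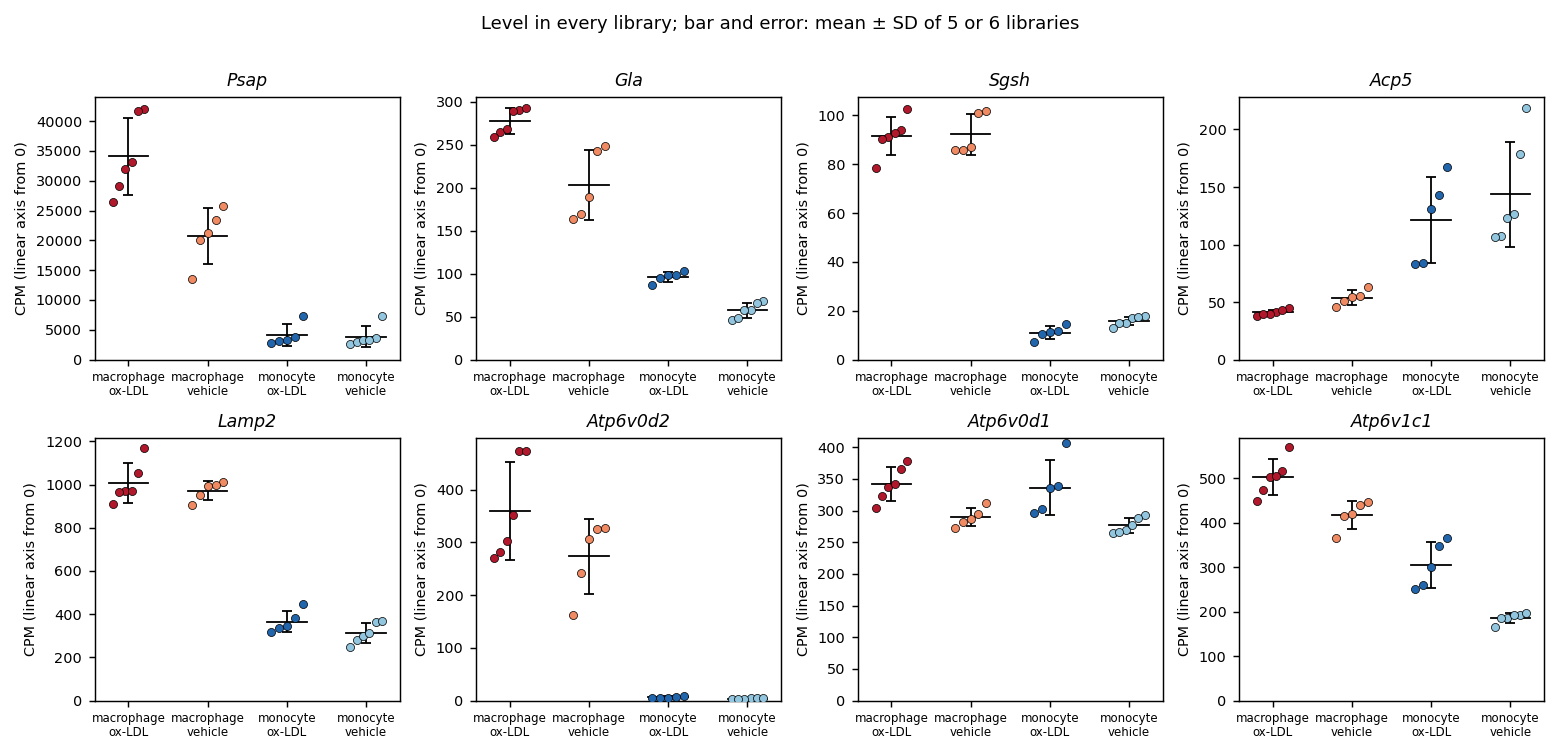
CPM of 8 members in every library (points, linear axis from 0) with the mean and SD of each group of 5 or 6 libraries. Macrophage and monocyte libraries separate for Psap, Gla, Sgsh, Lamp2, Atp6v0d2 and Atp6v1c1, Acp5 is lower in macrophages, and Atp6v0d1 overlaps.

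Promoters of the members were searched for the CLEAR palindrome because this element is the known binding site of the TFEB family. The part of that family in these results was not tested. RefSeq promoters (GRCm38.p6, 250 bases before the start site and 50 bases from it on, with the start site counted as position 0) matched 42 members. The others were Asah1, Atp6v0d2, Atp6v1b2, Atp6v1c1, Atp6v1g1 and Atp6v1h. The CLEAR consensus, its inner TCACGTGA and the shared core CACGTG read the same on both strands, and each longer form contains the shorter. TCACGTGA was in the promoter of 6 of 42 members (14.3%) and of 1.12% of the 27025 genes in the promoter table. CACGTG was in 14 of 42 (33.3%) against 8.09% of all genes, and the whole CLEAR consensus in Cln3 alone (2.38% against 0.37%). A gene with several promoters was counted if any of them held the element. The genes of the promoter table were not matched to the members in expression or base composition. Since CLEAR is an element known from lysosomal genes, its higher share in these members is a description and not a finding about these libraries. For Cln3 the element lay in the promoter at chr7:126583187-126583486, and the other Cln3 promoter, chr7:126585768-126586067, held none of these forms. The windows of 40 bases around each TCACGTGA, with that element in capitals, are given for the 6 genes: Gla (minus strand, chrX:134601210-134601249 and chrX:134601177-134601216, element starting at -228 and -195), Mcoln1 (plus strand, chr8:3500457-3500496, at -46), Cln3 (minus strand, chr7:126583335-126583374, at -122), Atp6v0d1 (minus strand, chr8:105566045-105566084, at -4), Atp6v0e (plus strand, chr17:26676382-26676421, at 2) and Atp6v1a (minus strand, chr16:44139368-44139407, at -132).
Gla, farther element: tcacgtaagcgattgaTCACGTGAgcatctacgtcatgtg
Gla, nearer element: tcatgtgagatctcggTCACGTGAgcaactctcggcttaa
Mcoln1: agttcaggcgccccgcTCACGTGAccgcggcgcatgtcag
Cln3: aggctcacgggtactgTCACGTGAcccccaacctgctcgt
Atp6v0d1: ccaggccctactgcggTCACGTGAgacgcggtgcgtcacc
Atp6v0e: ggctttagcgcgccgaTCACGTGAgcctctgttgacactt
Atp6v1a: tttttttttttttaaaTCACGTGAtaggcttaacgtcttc
The 100 bases before the start site are given, with CACGTG in capitals, for Lamp1, which holds 4 copies (plus strand, chr8:13159061-13159160), and for Naglu (plus strand, chr11:101069994-101070093) and Sgsh (minus strand, chr11:119355511-119355610), both heparan sulfate enzymes among the hydrolases with the highest fold changes.
Lamp1: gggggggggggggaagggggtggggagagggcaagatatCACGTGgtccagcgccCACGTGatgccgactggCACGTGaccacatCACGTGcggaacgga
Naglu: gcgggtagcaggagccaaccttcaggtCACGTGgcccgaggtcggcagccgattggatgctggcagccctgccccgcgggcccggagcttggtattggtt
Sgsh: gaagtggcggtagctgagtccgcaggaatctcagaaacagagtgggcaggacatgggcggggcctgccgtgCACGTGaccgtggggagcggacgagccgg
Of the 6 members with TCACGTGA, Gla, Mcoln1, Cln3 and Atp6v1a were called higher in macrophages with vehicle and with ox-LDL, and Atp6v0d1 and Atp6v0e in neither. Of the 28 members whose promoter window holds no CACGTG, 24 were called higher with vehicle and 24 with ox-LDL. Of the 14 members with CACGTG, 11 and 10 were called higher. The median log2 fold change without CACGTG was 1.24 with vehicle and 1.08 with ox-LDL, beside 0.99 and 1.07 with CACGTG. Galc and Psap, also among the highest fold changes, hold no CACGTG in these windows. A match is a description of the sequence, and a window with no match shows only that these letters are not in it.

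All 10 hydrolases and cofactors of sphingolipid breakdown rose in macrophages with vehicle and with ox-LDL, and in no library did a macrophage value fall into the range of its monocyte group. Psap encodes prosaposin, the precursor of the saposins that present sphingolipids to their hydrolases. With vehicle it had 13448, 19980.2, 23453, 25839 and 21174 CPM in macrophages, against 2603 to 7357 (median 3259) CPM in monocytes. With ox-LDL it had 26408 to 42024 (median 32604) CPM in macrophages, against 3761, 3308, 3183, 7333 and 2854 CPM in monocytes. Both monocyte groups held a single high library, vehicle replicate 6 and ox-LDL replicate 10, still below the lowest macrophage library. The log2 fold change of Psap was 2.42 ± 0.26 (SE, adjusted p = 2.37e-06) with vehicle and 3.02 ± 0.27 (SE, adjusted p = 4.52e-07) with ox-LDL. Galc, the galactosylceramidase, had 212, 283, 264, 270.0 and 243 CPM in vehicle macrophages against 25.01 to 45.8 (median 39.7) CPM in vehicle monocytes, and 254 to 290.3 (median 283) CPM in ox-LDL macrophages against 33.7, 38.3, 30.9, 47.6 and 52.02 CPM in ox-LDL monocytes. Its log2 fold change was 2.73 ± 0.15 with vehicle and 2.74 ± 0.14 with ox-LDL, and the groups lay far apart.

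The other 8 sphingolipid members were called as well. Glb1 (β-galactosidase) rose by 2.46 and 2.36 on the log2 scale with vehicle and with ox-LDL, and Hexa (the alpha subunit of β-hexosaminidase) by 2.08 and 1.86. Gla, the alpha-galactosidase that clears globotriaosylceramide, rose by 1.80 and 1.49, and the acid ceramidase Asah1 by 1.66 and 1.53. For the acid sphingomyelinase Smpd1 the values were 1.35 and 1.20, and for Gm2a, the cofactor of ganglioside breakdown, 0.98 and 0.86. The arylsulfatase Arsa, which acts on sulfatide, and the sialidase Neu1 rose by 0.92 and 0.85 with vehicle and by 1.23 and 0.78 with ox-LDL. Exons of Glb1 overlap those of Tmppe on the same strand, so part of its count can be uncertain.

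Enzymes that degrade glycosaminoglycans, glycoproteins and glycogen rose just as widely, with all 9 called higher in both comparisons. The highest fold changes belonged to Naglu and Sgsh, which remove sugars and sulfates from heparan sulfate. Sgsh had 85.8, 86.9, 85.8, 101 and 102 CPM in vehicle macrophages against 12.9 to 17.7 (median 16.01) CPM in vehicle monocytes, a log2 fold change of 2.52 ± 0.11 (adjusted p = 3.04e-10). It had 78.5 to 103 (median 91.9) CPM in ox-LDL macrophages against 10.3, 11.1, 7.17, 14.7 and 11.7 CPM in ox-LDL monocytes, 3.03 ± 0.16 (SE, adjusted p = 4.26e-09). No library of either pair overlapped. Naglu had 489.9, 475, 490.3, 574 and 488 CPM in vehicle macrophages against 53.3 to 100.4 (median 83.4) CPM in vehicle monocytes. With ox-LDL, its level was 527 to 728 (median 570.0) CPM in macrophages against 86.7, 99.7, 74.6, 81.96 and 78.6 CPM in monocytes. Its log2 fold changes were 2.60 ± 0.15 and 2.80 ± 0.13, with the groups apart in both.

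Gusb (β-glucuronidase) rose by 2.18 with vehicle and 1.97 with ox-LDL, Man2b1 (lysosomal alpha-mannosidase) by 1.92 and 1.87, and Arsb (arylsulfatase B) by 1.68 and 1.88, all as log2 fold changes. Idua and Ids, which act in turn on dermatan and heparan sulfate, rose by 1.23 and 0.48 with vehicle and by 1.06 and 0.58 with ox-LDL. The fucosidase Fuca1 and the glycogen-degrading Gaa rose by 1.13 and 0.93 with vehicle and by 0.85 and 1.19 with ox-LDL. The call for Ids with vehicle (adjusted p = 0.0293) was lost in 6 of 18 alternatives (adjusted p 0.0052 to 0.0839), among them without vehicle monocyte replicate 1 or 2 and without vehicle macrophage replicate B or E.

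The remaining 6 hydrolases split, and they held the single member that fell in macrophages in both comparisons. Acp5, the tartrate-resistant acid phosphatase best known from osteoclasts, had 63.2, 54.4, 55.4, 46.1 and 50.5 CPM in vehicle macrophages, against 107 to 219 (median 125) CPM in vehicle monocytes. With ox-LDL it had 37.98 to 44.4 (median 40.5) CPM in macrophages, against 168, 131, 143, 83.8 and 82.8 CPM in monocytes. All macrophage libraries lay below all monocyte libraries, and the 3 monocyte libraries of highest Acp5 were replicates 1, 2 and 7, those low in erythroid markers. Its log2 fold change was -1.43 ± 0.19 (SE, adjusted p = 1.81e-05) with vehicle and -1.60 ± 0.17 (SE, adjusted p = 2.55e-06) with ox-LDL. Without the 4 monocyte libraries high in neutrophil markers these were -1.61 (adjusted p = 2.32e-06) and -1.90 (adjusted p = 4.98e-09).

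Lgmn, the asparaginyl endopeptidase legumain, was among the most abundant members in monocytes and did not pass the test in either comparison. It had 1377, 1397, 1388, 1442 and 1408 CPM in vehicle macrophages and 882 to 1582 (median 972) CPM in vehicle monocytes. With ox-LDL it had 1181 to 1447 (median 1318) CPM in macrophages and 1647, 1655, 1656, 1107 and 1384 CPM in monocytes. The groups overlapped, with vehicle monocyte replicate 1 above every vehicle macrophage library and ox-LDL monocyte replicates 7, 8 and 9 above every ox-LDL macrophage library. The log2 fold changes were 0.32 ± 0.15 (SE, adjusted p = 0.0812) and -0.21 ± 0.13 (SE, adjusted p = 0.157). Without the 4 neutrophil-high monocyte libraries the value with ox-LDL was -0.39 (adjusted p = 0.00535), past the threshold. Dnase2a, the acid nuclease that clears engulfed DNA, had 93.1, 84.9, 93.5, 91.3 and 88.4 CPM in vehicle macrophages and 56.2 to 106 (median 65.6) CPM in vehicle monocytes, overlapping groups with a log2 fold change that came to 0.24 ± 0.16 (SE, adjusted p = 0.199). With ox-LDL it was called higher at 0.38 ± 0.12 (SE, adjusted p = 0.0161), a call lost in 3 of 18 alternatives (adjusted p 0.00237 to 0.124), among them without ox-LDL monocyte replicate 11. The tripeptidyl peptidase Tpp1, the thioesterase Ppt1 and the acid phosphatase Acp2 rose in both: by 1.42, 1.14 and 1.25 with vehicle and by 1.28, 0.90 and 1.10 with ox-LDL.

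All 7 membrane and other lysosomal proteins rose in both comparisons, with a median log2 fold change of 1.28 with vehicle and 1.40 with ox-LDL. Lamp1 and Lamp2 are the major glycoproteins of the lysosomal membrane. Lamp1 had 2853, 2744, 2596, 2820.5 and 2785 CPM in vehicle macrophages against 1439 to 2089 (median 1921) CPM in vehicle monocytes, and 2811 to 3472 (median 3204) CPM in ox-LDL macrophages against 2110.1, 2005, 2108, 1704 and 1899 CPM in ox-LDL monocytes. Lamp2, which also serves in autophagy, had 951, 994, 1012, 996 and 907 CPM in vehicle macrophages against 248 to 368 (median 307) CPM in vehicle monocytes, and 909.5 to 1169 (median 969) CPM in ox-LDL macrophages against 319, 345, 337, 382 and 445 CPM in ox-LDL monocytes. Neither gene had a library out of order. Lamp1 rose by 0.55 ± 0.11 (SE, adjusted p = 0.000753) with vehicle and 0.67 ± 0.10 (SE, adjusted p = 7.26e-05) with ox-LDL, and Lamp2 by 1.62 ± 0.11 (SE, adjusted p = 3.55e-08) and 1.43 ± 0.11 (SE, adjusted p = 1.66e-07). Per length, Lamp1 stayed the more abundant of the pair, at 2889.6 ± 154 TPM against 286 ± 26.9 TPM for Lamp2 in vehicle macrophages and at 1926 ± 441 TPM against 89.7 ± 18.5 TPM in vehicle monocytes (SD).

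Scarb2, the receptor that carries β-glucocerebrosidase to lysosomes, had 363, 358, 349, 378 and 394 CPM in vehicle macrophages against 90.98 to 114 (median 104) CPM in vehicle monocytes, and 343 to 427 (median 384) CPM in ox-LDL macrophages against 98.9, 123, 97.7, 103 and 115 CPM in ox-LDL monocytes. The groups lay apart, and its log2 fold change was 1.81 ± 0.09 with vehicle and 1.80 ± 0.10 with ox-LDL. Grn encodes progranulin, which is cut into granulins inside lysosomes and pairs with prosaposin in trafficking. It had 4692, 4299.7, 4339, 5158 and 4988 CPM in vehicle macrophages against 903 to 1238 (median 986) CPM in vehicle monocytes, and 4228 to 5184 (median 4861) CPM in ox-LDL macrophages against 965, 1293, 836, 1025 and 1390.0 CPM in ox-LDL monocytes. Its log2 fold changes were 2.16 ± 0.12 and 2.09 ± 0.15. For Grn too, every macrophage library was above every monocyte library in both comparisons. Mcoln1, the lysosomal calcium channel, had 119, 113, 134, 148 and 128 CPM in vehicle macrophages against 45.9 to 75.2 (median 60.2) CPM in vehicle monocytes, and 140.3 to 167 (median 149) CPM in ox-LDL macrophages against 86.1, 74.01, 100.2, 60.5 and 69.9 CPM in ox-LDL monocytes. It rose by 1.05 ± 0.13 and 0.91 ± 0.12. Laptm5, a membrane protein of blood cell lysosomes, rose by 1.28 and 1.40, and Cln3, mutated in juvenile Batten disease, by 1.18 and 0.94. Exons of Cln3 and Apobr, of Ppt1 and Cap1, and of Idua and Dgkq overlap on opposite strands, and without strand such reads cannot be told apart.

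The proton pump rose less uniformly. Of its 16 genes, 11 were higher in macrophages with vehicle, 0 lower and 5 not called (median log2 fold change 0.63). Of all genes tested, 28.5% were called higher and 35.1% lower, 63.7% in either direction. With ox-LDL, 9 were higher, 2 lower and 5 not called (median 0.38), beside 30.3% of all genes higher and 35% lower, 65.4% in either direction. The share of pump genes called at all was thus near that of all genes. In the V0 sector the contrast between the paralogs of subunit d was widest. Atp6v0d2, the form known from osteoclasts and macrophages, had 326, 327, 307, 242 and 163 CPM in vehicle macrophages, against 2.10 to 4.81 (median 3.84) CPM in vehicle monocytes. With ox-LDL it had 270.4 to 474 (median 328) CPM in macrophages, against 5.58, 9.28, 6.57, 3.93 and 5.17 CPM in monocytes. Every macrophage library was far above every monocyte library. The log2 fold change was 6.26 ± 0.27 (SE, adjusted p = 3.43e-10) with vehicle, a 76.4-fold difference, and 5.85 ± 0.27 (SE, adjusted p = 1.23e-09) with ox-LDL, 57.5-fold. It was the highest of all 48 members.

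The ubiquitous paralog Atp6v0d1 had 281, 273, 294, 311 and 287 CPM in vehicle macrophages and 265 to 294 (median 273) CPM in vehicle monocytes. With ox-LDL it had 304 to 379 (median 339) CPM in macrophages and 303, 336, 339, 297 and 407 CPM in monocytes. The groups overlapped and the log2 fold changes were 0.05 ± 0.08 (SE, adjusted p = 0.647) and -0.01 ± 0.10 (SE, adjusted p = 0.936). Of the TPM of both paralogs together, Atp6v0d2 made up 40.4 ± 4.38% in ox-LDL macrophages, 37.9 ± 7.17% in vehicle macrophages, 1.19 ± 0.387% in ox-LDL monocytes and 0.837 ± 0.275% in vehicle monocytes (SD). In vehicle macrophages that share was 43.3, 44.1, 40.8, 33.9 and 27.3% in the 5 libraries. Of 8 osteoclast markers, 6 could be tested with vehicle and 3 were called higher in macrophages, 1 lower and 2 not called. With ox-LDL 3 of 6 were higher, 2 lower and 1 not called. In vehicle macrophages Calcr was at 0 in every library, Oscar reached at most 0.0420 CPM and Ctsk had 2.57 to 5.94 CPM, whereas Nfatc1 had 132 to 155 CPM and Itgb3 6.92 to 46.8 CPM. Dcstamp averaged 35.7 CPM in vehicle macrophages and 1.95 CPM in vehicle monocytes, and Ocstamp averaged 2.89 CPM in vehicle macrophages and 0.309 CPM in vehicle monocytes. The whole list of 8 osteoclast markers summed to 154 to 254 CPM in ox-LDL macrophages, 158 to 272 in vehicle macrophages, 551 to 3549 in ox-LDL monocytes and 688 to 3692 in vehicle monocytes, where Mmp9 made up most of it. The part of these markers in the Atp6v0d2 values was not tested.

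A smaller shift was seen in subunit a, the V0 subunit whose paralogs place the pump in different membranes. Atp6v0a1 had 402, 578, 756, 754 and 513 CPM in vehicle macrophages against 109 to 170.1 (median 150.0) CPM in vehicle monocytes, and 453 to 846 (median 762) CPM in ox-LDL macrophages against 158, 183, 166, 179.9 and 218 CPM in ox-LDL monocytes. No libraries overlapped, though macrophage levels spread widely, with replicates A and K the lowest of their groups. Its log2 fold change was 2.03 ± 0.17 (SE, adjusted p = 2.3e-07) with vehicle and 1.94 ± 0.16 (SE, adjusted p = 2.34e-07) with ox-LDL. Of its paralogs outside the set, Tcirg1, the a3 form, rose by 1.34 ± 0.11 and 1.15 ± 0.12, while Atp6v0a2 had 0.12 ± 0.15 and -0.03 ± 0.09 and was not called. Of the TPM of these paralogs together, Atp6v0a1 made up 42.4 ± 5.73% in ox-LDL macrophages, 40.9 ± 5.93% in vehicle macrophages, 27.8 ± 1.40% in ox-LDL monocytes and 27.98 ± 1.12% in vehicle monocytes. Tcirg1 kept the higher mean in every group, though not in every macrophage library. Its mean was 366 TPM against 300 TPM for Atp6v0a1 in ox-LDL macrophages, and 327 against 260 TPM in vehicle macrophages. Of the rest of V0, the proteolipid genes Atp6v0c and Atp6v0b rose by 0.71 and 0.39 with vehicle. With ox-LDL, Atp6v0c rose by 0.68 and Atp6v0b had 0.04 ± 0.11 (SE, adjusted p = 0.778). Over all libraries a pair of Atp6v0c pseudogenes drew 78172 and 5551 counts beside 775060 for Atp6v0c, so its reads can be shared with near-identical copies. The small subunit Atp6v0e had -0.22 ± 0.11 (SE, adjusted p = 0.0876) with vehicle and -0.33 ± 0.15 (SE, adjusted p = 0.0616) with ox-LDL. With ox-LDL it was called lower in 8 of 18 alternatives (adjusted p 0.00529 to 0.124).

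**Figure D3:**
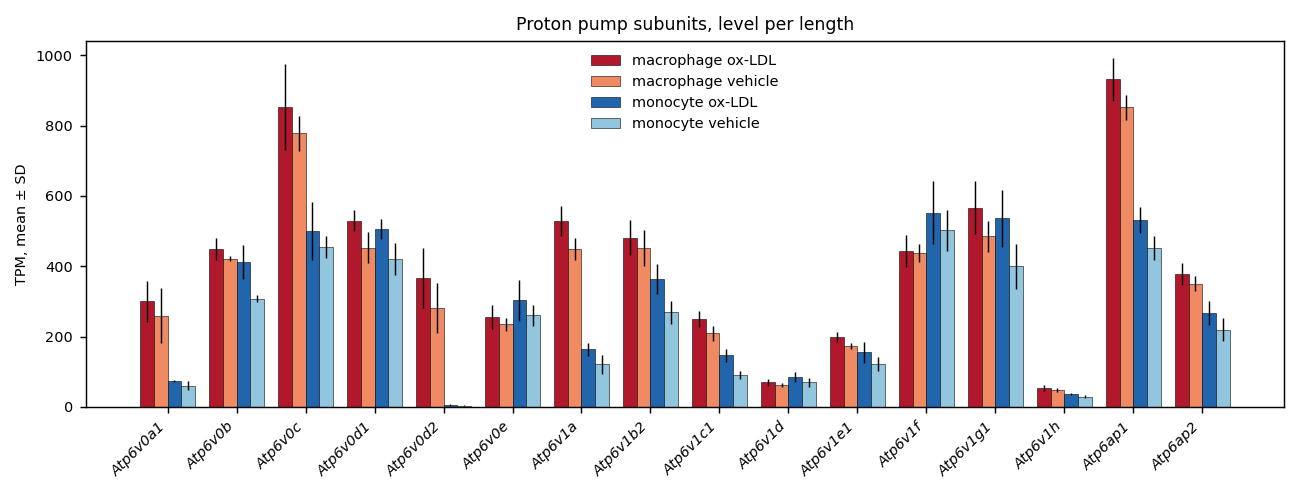
Mean TPM (± SD of 5 or 6 libraries) of the 16 pump genes in the 4 groups. Macrophage bars exceed monocyte bars for Atp6v0a1, Atp6v0d2, Atp6v1a and Atp6ap1, while the SD bars of both cell types overlap for Atp6v0d1, and Atp6v1d and Atp6v1f are taller in ox-LDL monocytes than in ox-LDL macrophages.

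Within V1, 5 of 8 subunits were called higher with vehicle, where 28.5% of all genes tested were. With ox-LDL 4 were called higher and 2 lower, where 30.3% and 35% of all genes were. Atp6v1a, the ATP-splitting subunit, had 1061, 983, 941, 1025 and 848 CPM in vehicle macrophages against 203 to 321 (median 266) CPM in vehicle monocytes, and 1021 to 1242 (median 1146) CPM in ox-LDL macrophages against 293, 424, 334, 341 and 456 CPM in ox-LDL monocytes. The groups were apart, with log2 fold changes of 1.85 ± 0.12 (SE, adjusted p = 1.57e-08) and 1.60 ± 0.13 (SE, adjusted p = 1.51e-07). Atp6v1c1, which bridges the sectors, rose by 1.14 with vehicle and 0.69 with ox-LDL, Atp6v1b2, the other subunit of the head, by 0.68 and 0.33, and the regulatory Atp6v1h by 0.64 and 0.43. The call for Atp6v1b2 with ox-LDL (adjusted p = 0.0254) was lost in 7 of 18 alternatives (adjusted p 0.00661 to 0.0831), including without ox-LDL monocyte replicate 7, 8 or 10 and without ox-LDL macrophage replicate I or J. The stalk subunit Atp6v1e1 was called higher with vehicle, at 0.42 ± 0.17 (SE, adjusted p = 0.0422), but that call was lost in 10 of 18 alternatives, including without any one of vehicle monocyte replicates 1 to 4 or vehicle macrophage replicates A to D (adjusted p 4.46e-05 to 0.0958). With ox-LDL its value was 0.26 ± 0.16 (SE, adjusted p = 0.18).

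Atp6v1d and Atp6v1f, of the central rotor, were not called with vehicle. Atp6v1d had 109, 104, 112, 97.9 and 89.7 CPM in vehicle macrophages and 95.5 to 169 (median 114) CPM in vehicle monocytes, and 97.2 to 135 (median 111) CPM in ox-LDL macrophages against 154, 133, 159, 114 and 159 CPM in ox-LDL monocytes. Atp6v1f had 183, 149.7, 159.8, 175 and 164 CPM in vehicle macrophages and 171 to 252 (median 185) CPM in vehicle monocytes, and 152 to 186 (median 168) CPM in ox-LDL macrophages against 215, 228, 239, 164 and 236 CPM in ox-LDL monocytes. Ranges overlapped in every case. With vehicle the log2 fold changes were -0.24 ± 0.15 (SE, adjusted p = 0.159) and -0.27 ± 0.12 (SE, adjusted p = 0.0599). Against ox-LDL monocytes, both fell in ox-LDL macrophages, by 0.35 ± 0.12 (SE, adjusted p = 0.016) and 0.39 ± 0.11 (SE, adjusted p = 0.00634) on the log2 scale. For Atp6v1g1, of the outer stalk, the values were 0.20 ± 0.16 (SE, adjusted p = 0.28) and -0.00 ± 0.13 (SE, adjusted p = 0.984). The accessory proteins Atp6ap1, which guides assembly, and Atp6ap2, also known as the prorenin receptor, rose by 0.85 and 0.62 with vehicle and by 0.73 and 0.43 with ox-LDL.

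Set side by side per length, hydrolase transcripts gained more than pump transcripts. The 23 hydrolases without their cofactors summed to 8393 to 8897 (median 8700.0) TPM in ox-LDL macrophages, 7646, 8536, 8909, 9123 and 8675 TPM in vehicle macrophages, 4758, 4373, 4338, 3490.4 and 3371 TPM in ox-LDL monocytes and 2292 to 4363 (median 3307) TPM in vehicle monocytes. The 16 pump genes summed to 5998 to 7085 (median 6728) TPM in ox-LDL macrophages, 5559, 5997, 6266, 6306 and 5607 TPM in vehicle macrophages, 4653, 4918, 5013, 3973 and 4646 TPM in ox-LDL monocytes and 3559.7 to 4095 (median 3764) TPM in vehicle monocytes. Both sums were higher in every macrophage library than in any monocyte library. The log2 ratio of the sums, hydrolases over pump, was 0.28 to 0.48 (median 0.38) in ox-LDL macrophages, 0.46, 0.51, 0.51, 0.53 and 0.63 in vehicle macrophages, 0.03, -0.17, -0.21, -0.19 and -0.46 in ox-LDL monocytes and -0.64 to 0.16 (median -0.18) in vehicle monocytes. All 11 macrophage libraries lay above all 11 monocyte libraries, and the highest ratios among monocytes were those of replicates 1, 2 and 7. The mean ratio differed by 0.69 between macrophages and monocytes with vehicle and by 0.59 with ox-LDL. These ratios are a description, since their members were chosen with results known. Lgmn, the most abundant hydrolase in monocytes, weighs on the sum: without it and without Atp6ap1 the differences were 1.09 with vehicle and 1.15 with ox-LDL. From the mean log2 CPM of the members, in which each gene weighs the same, they were 0.43 with vehicle and 0.57 with ox-LDL.

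**Figure D4:**
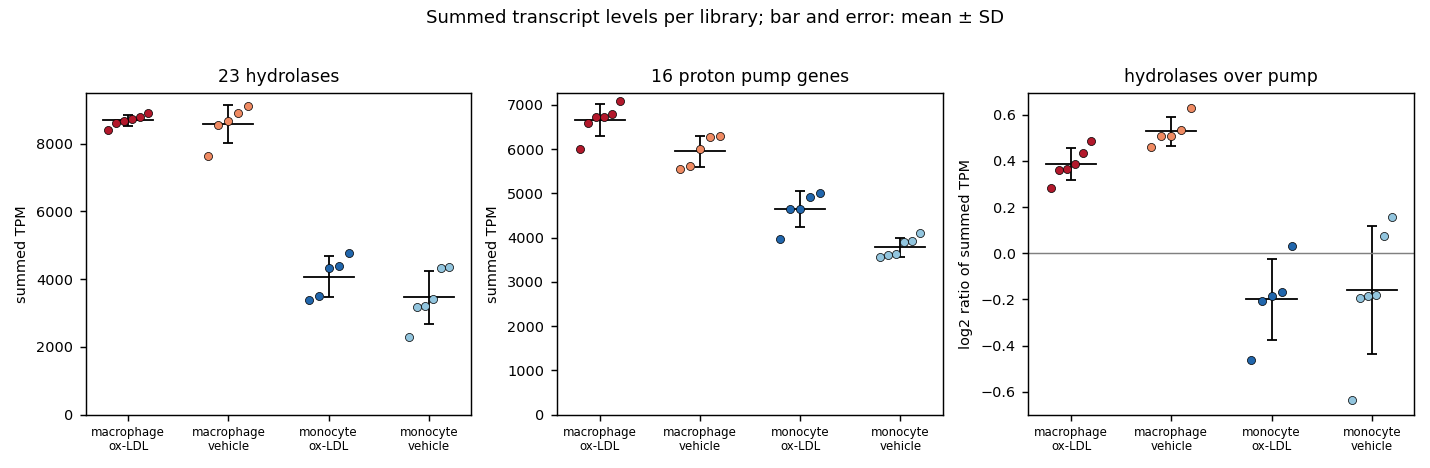
Summed TPM of 23 hydrolases (left), of 16 pump genes (middle) and the log2 ratio of the sums (right, 0 means equal) in every library, with the mean and SD of each group. The ratio runs from 0.28 to 0.63 in the 11 macrophage libraries and from -0.64 to 0.16 in the 11 monocyte libraries.

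Most lysosomal genes outside the set were also higher in macrophages. Of 50 other lysosome genes, 49 could be tested with vehicle and 39 were higher in macrophages, 3 lower and 7 not called. With ox-LDL 40 of 50 were higher, 4 lower and 6 not called. Their largest changes with vehicle were those of Plbd1 (-4.84 ± 0.26), Cln6 (2.91 ± 0.10), Hgsnat (2.69 ± 0.13) and Slc17a5 (2.53 ± 0.16), as log2 fold change ± SE. Plbd1, a phospholipase B-like protein known from neutrophil granules, had 8.41 ± 0.935 CPM in vehicle macrophages and 237 ± 92.3 CPM in vehicle monocytes (SD). With ox-LDL the largest were Plbd1 (-5.13 ± 0.22), Cln6 (2.88 ± 0.16), Igf2r (2.38 ± 0.21), the receptor that sorts hydrolases by their mannose 6-phosphate, and Pla2g15 (2.35 ± 0.15), a lysosomal phospholipase. Hgsnat acetylates heparan sulfate between the steps of Sgsh and Naglu, and Slc17a5 exports sialic acid from lysosomes. Of 10 other vacuolar ATPase genes, 3 passed the filter on low counts: Tcirg1 and Atp6v1g2 were higher and Atp6v0a2 was not called in either comparison.

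In macrophages, loading with ox-LDL moved few of the 48 genes. It raised 2, lowered 1 and left 45 without a call, in a comparison where 0.976% of the 14543 genes tested were called higher and 1.38% lower (142 and 200 genes, or 92 and 334 with total counts as the scaling). Psap had 26408 to 42024 (median 32604) CPM in ox-LDL macrophages, against 13448, 19980.2, 23453, 25839 and 21174 CPM in vehicle macrophages. Every ox-LDL library lay above every vehicle library, but the lowest of the ox-LDL libraries was close to the highest of the vehicle libraries. Psap rose by 0.71 ± 0.16 (SE, adjusted p = 0.0356) on the log2 scale, or 1.64-fold, from the highest level of any member. Over all genes tested, 1.59% had every ox-LDL library higher and 1.79% every one lower. Gla had 259 to 293 (median 278) CPM with ox-LDL against 163, 169, 249, 243 and 189 CPM with vehicle, again without overlap, and rose by 0.45 ± 0.11 (SE, adjusted p = 0.0474). Acp5 had 37.98 to 44.4 (median 40.5) CPM with ox-LDL against 63.2, 54.4, 55.4, 46.1 and 50.5 CPM with vehicle, with no overlap, and fell by 0.40 ± 0.08 (SE, adjusted p = 0.0194).

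None of these 3 calls stood in all 17 alternatives. Psap was not called in 8 (adjusted p 0.000511 to 0.437): the fit over all 4 groups and those without vehicle replicate B, C or E or ox-LDL replicate G, H, K or L. Gla was not called in 12 (adjusted p 0.00458 to 0.133), among them those without vehicle replicate A, B or E or any one of the ox-LDL replicates. Acp5 was not called in 3 (adjusted p 0.000383 to 0.695): the fit over all 4 groups and those without vehicle replicate B or ox-LDL replicate H. All 3 kept their sign in every alternative. DESeq2, which called 305 of 14533 genes tested higher and 393 lower, called 6 members higher, adding Lamp1, Atp6v0d1, Atp6v1a and Atp6v1c1. Of these, Atp6v1c1 had 449 to 569 (median 503) CPM with ox-LDL against 419.6, 414, 446, 438 and 366 CPM with vehicle, without overlap, and an edgeR value of 0.27 ± 0.07 (SE, adjusted p = 0.0858).

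Among the 16 pump genes, 0 were called with ox-LDL in macrophages by edgeR and 3 by DESeq2. By edgeR, 5 pump genes had an unadjusted p under 0.05, as did 14 of all 48 members and 14.2% of all genes tested. All 16 had a log2 fold change above 0, from 0.02 to 0.39 with a median of 0.17, where 50.1% of all genes tested were above 0. The sign of Atp6v1f was negative in 4 of the alternatives and that of the other 15 in none. Atp6v0d2 had 270.4 to 474 (median 328) CPM with ox-LDL and 326, 327, 307, 242 and 163 CPM with vehicle, overlapping groups with a log2 fold change that came to 0.39 ± 0.20 (SE, adjusted p = 0.395). Hydrolases and cofactors were divided, with 13 of 25 above 0, and so were the glycan hydrolases, with 2 of 9. The members not called among the membrane genes included Lamp1 at 0.21 ± 0.06 (SE, adjusted p = 0.125) and Lamp2 at 0.05 ± 0.07 (SE, adjusted p = 0.833). In the same libraries 4 of 8 monocyte markers were called lower, with a summed level of 2773 to 5258 CPM with ox-LDL against 3979.9 to 6777 CPM with vehicle. The part of this in the results was not tested. Among the other lysosome genes that rose were the sorting receptor Sort1 (0.39 ± 0.07), the peptidase Dpp7 (0.32 ± 0.08) and Lipa (0.30 ± 0.06), the acid lipase that releases cholesterol from lipoprotein esters.

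**Figure D5:**
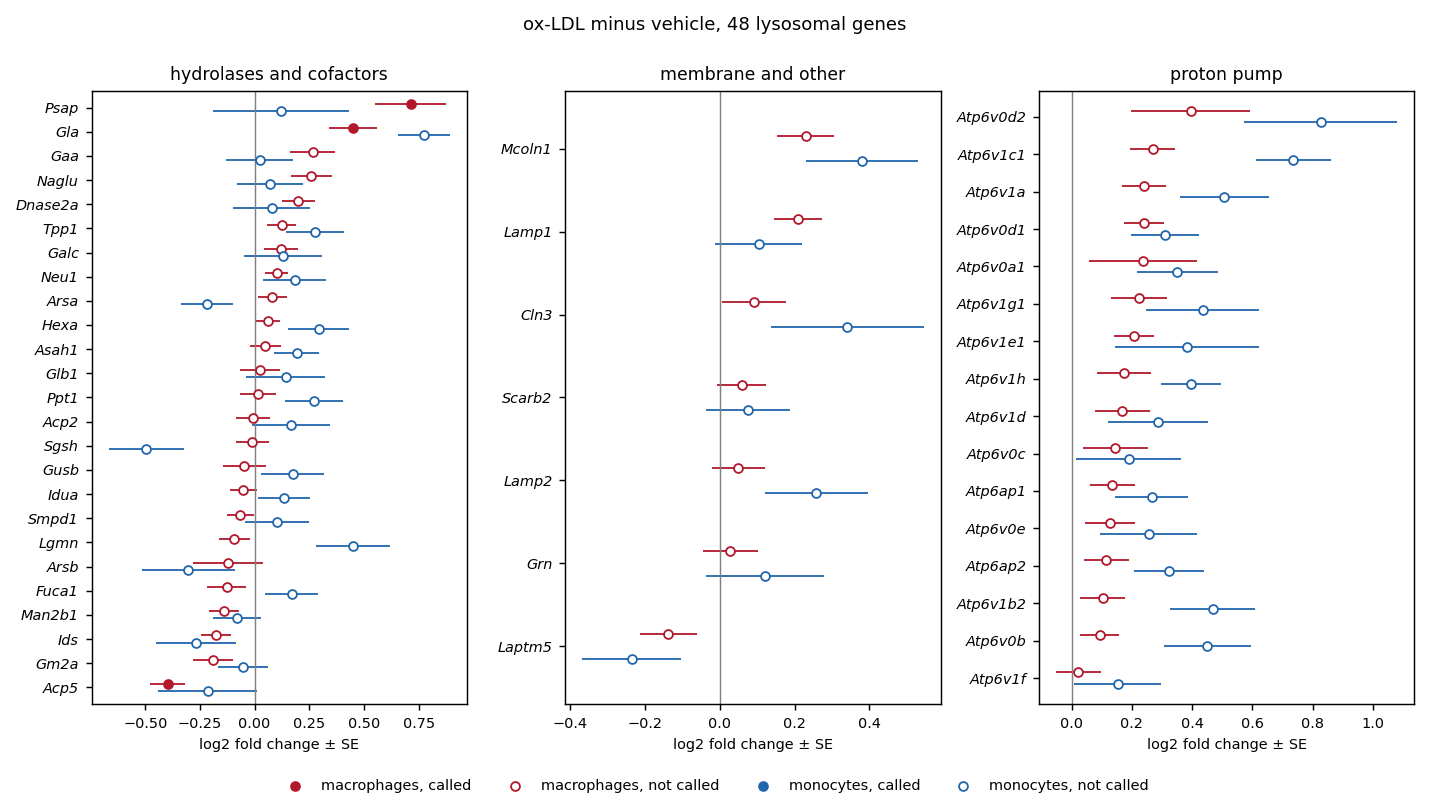
Log2 fold change of each of the 48 genes with ox-LDL over vehicle (x axis, ± SE) in macrophages (red) and monocytes (blue), filled where the edgeR adjusted p was under 0.05. Filled points are Psap, Gla and Acp5 in macrophages, and all pump genes lie right of 0 in both cell types.

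In monocytes, 0 of the 48 genes were called with ox-LDL by edgeR, in a comparison where 4 of 16575 genes (0.0241%) were called at all. DESeq2 called 3 members higher, where it called 88 of 16564 genes higher and 63 lower. Limma voom called 1 member higher, where it called 6 of 16575 genes higher and 1 lower. By edgeR, 15 members had an unadjusted p under 0.05, where 10.4% of all genes did. The members of lowest p were Gla, Atp6v1c1, Atp6v1h and Atp6v1a. Gla had 95.1, 98.4, 97.9, 86.95 and 103 CPM with ox-LDL, against 46.4 to 67.9 (median 57.9) CPM with vehicle. The groups did not overlap and the log2 fold change was 0.77 ± 0.12 (SE, adjusted p = 0.0526). Atp6v1c1 had 260.0, 301, 346, 250.1 and 365 CPM with ox-LDL against 164 to 197 (median 189) CPM with vehicle, also apart, and 0.74 ± 0.13 (SE, adjusted p = 0.0615). For Atp6v1h the levels were 126, 140.2, 132, 122 and 151 CPM with ox-LDL against 96.7 to 111 (median 104) CPM with vehicle, apart, and the log2 fold change was 0.40 ± 0.10 (SE, adjusted p = 0.224). Atp6v1a had 293, 424, 334, 341 and 456 CPM with ox-LDL and 203 to 321 (median 266) CPM with vehicle, overlapping, and 0.51 ± 0.15 (SE, adjusted p = 0.267). In all, 5 members had every ox-LDL library above every vehicle library, 4 of them pump genes, where 0.646% of all genes tested did so.

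All 16 pump genes had a log2 fold change above 0 with ox-LDL in monocytes, from 0.15 to 0.83 with a median of 0.37, and each kept that sign in all 19 alternatives. Of all genes tested, 49.8% were above 0. Atp6v0d2 had 5.58, 9.28, 6.57, 3.93 and 5.17 CPM with ox-LDL and 2.10 to 4.81 (median 3.84) CPM with vehicle, a log2 fold change that came to 0.83 ± 0.26 (SE, adjusted p = 0.291) at low levels with overlap. Atp6v0d1 had 303, 336, 339, 297 and 407 CPM with ox-LDL against 265 to 294 (median 273) CPM with vehicle, without overlap, and 0.31 ± 0.11 (SE, adjusted p = 0.366). Hydrolases and cofactors were less uniform, with 18 of 25 above 0 and a median of 0.13. Psap had 3761, 3308, 3183, 7333 and 2854 CPM with ox-LDL and 2603 to 7357 (median 3259) CPM with vehicle, with one high library in each group and a log2 fold change that came to 0.12 ± 0.31 (SE, adjusted p = 0.941). Sgsh had 10.3, 11.1, 7.17, 14.7 and 11.7 CPM with ox-LDL and 12.9 to 17.7 (median 16.01) CPM with vehicle, overlapping, at -0.49 ± 0.17 (SE, adjusted p = 0.338). Lamp1 and Lamp2 had 0.10 ± 0.12 (SE, adjusted p = 0.832) and 0.26 ± 0.14 (SE, adjusted p = 0.551).

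With the 4 neutrophil-high libraries marked as a covariate, Gla, Atp6v1c1 and Atp6v0d2 were called higher in ox-LDL monocytes. In that fit 85 of 16575 genes were called higher and 37 lower. Without those libraries 0 members and 0 of 16968 genes were called, with 0.77 (edgeR adjusted p = 0.0846) for Gla and 0.73 (edgeR adjusted p = 0.0846) for Atp6v1c1. A single fit over all 4 groups called 6 members higher and Sgsh lower, where 150 of 17466 genes were called higher and 109 lower. Of 50 other lysosome genes 0 were called by edgeR, with a median log2 fold change of 0.18 and 38 above 0. The summed level of 9 macrophage markers was 9147 to 14255 CPM with ox-LDL against 6303 to 9178 CPM with vehicle, but 0 of 9 were called, 5 of 9 had a log2 fold change above 0 and their median was 0.06. Gpnmb, at a mean of 2978 CPM with ox-LDL and 1428 CPM with vehicle, and Lgals3, at 6183 CPM with ox-LDL and 3599 CPM with vehicle, carried most of the difference in the sum, while C1qa, C1qb, C1qc and Mertk had lower means with ox-LDL. Erythroid markers summed to 639.5 to 14419.9 CPM with ox-LDL and 439 to 10848 CPM with vehicle, with 0 of 7 called. The part of either list in the pump values was not tested.

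The effect of ox-LDL was compared between the cell types in one model with an interaction term. Of the 48 members 0 were called by edgeR, by DESeq2 or by limma voom, where 11 of 17466 genes were called by edgeR, 0.00573% of them higher and 0.0573% lower (0.063% in all). An unadjusted p under 0.05 was found for 6 members and for 7.22% of all genes. The lowest p was that of Atp6v1c1, whose log2 fold change with ox-LDL was 0.27 in macrophages and 0.74 in monocytes, a difference of -0.44 ± 0.14 (SE, adjusted p = 0.408). Sgsh followed, with -0.01 in macrophages and -0.49 in monocytes, a difference of 0.52 ± 0.18 (SE, adjusted p = 0.523). Without the 4 neutrophil-high monocyte libraries this difference was 0.75 (adjusted p = 0.0402), past the threshold. For Psap, called in macrophages and not in monocytes, the difference was 0.62 ± 0.37 (SE, adjusted p = 0.786), and for Gla it was -0.29 ± 0.16 (SE, adjusted p = 0.756). These p-values do not show that the cell types responded alike.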

How the data were processed

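The authors deposited, for each of 22 libraries, whole-number read counts for 55487 genes, beside CPM, FPKM and TPM that they computed from the same counts, per the file headers. Reads were aligned with STAR 2.7.9a to GRCm38 and counted with featureCounts 2.0.3 of the Subread package, per the submitters' processing notes. Which strand setting and annotation release were used, and how reads with several matches were counted, is not given in the sources used here. Libraries were made with a SMARTer Ultra Low kit, which does not mark strand, per the labels' protocols. Gene positions in the files were the same as in GENCODE release M21 for 99.4% of shared genes and for all 48 members.

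Deposited counts were tested with edgeR 4.0.16 in R 4.3.3: TMM factors, filterByExpr on low counts, the quasi-likelihood F test and Benjamini-Hochberg adjustment over all genes tested, with a threshold of 0.05. Each pair of groups was fitted alone and the difference of the ox-LDL effects in 1 model of all groups. Totals of 37330389 to 50257111 counts per library set the precision. CPM in the text are deposited counts divided by TMM-scaled library sizes. TPM are the values the authors deposited; FPKM as deposited served to check the units. The SE of a log2 fold change is its size over the root of F. All 48 members passed the filter in every comparison. Ratios of summed TPM were described without a test. Alternatives were total counts, RLE size factors, no filter, DESeq2 1.42.0, limma 3.58.1 (voom), 1 fit over all groups, the neutrophil-high libraries left out or set as a covariate, and each library left out in turn. The scripts were tested on simulated data.

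The members, the gene lists and the tests were chosen with earlier results of these data known. All members are accounted for by role. Values in every library are given for the 3 highest and 2 lowest fold changes of each class between cell types, the called or otherwise the 4 lowest-p members with ox-LDL, the 2 lowest-p members in the difference of effects, and always Psap, Lamp1, Lamp2, Atp6v0d1 and Atp6v0d2. Up to 4 called genes of the other lysosome list are named per comparison, and a result that this rule would name is not reported here. Promoter sequences are RefSeq's for GRCm38.p6.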

Additional observations from a re-analysis of the deposited data

Results flagged for a closer look

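In 10 of 196 groups of values, 1 library lay apart from the others of its group by Dixon's criterion, with CPM taken on the log2 scale. Chance gives about 1 in 20 groups, so this count is near what chance gives and the values are only listed. Psap, Gm2a and Man2b1 were highest in the same library, vehicle monocyte replicate 6, at 7357, 378 and 519.8 CPM. Gaa and Idua were lowest in vehicle monocyte replicate 5, at 132 and 39.7 CPM. Both libraries are high in neutrophil markers. Tpp1 and Atp6v1f were lowest in ox-LDL monocyte replicate 10, also high in neutrophil markers, at 299.8 and 164 CPM. The part of those markers in the listed values was not tested. Atp6v1c1 was lowest in vehicle monocyte replicate 4, at 164 CPM. In macrophages, Neu1 was lowest in ox-LDL replicate J, at 161 CPM, and Naglu was highest in vehicle replicate D, at 574 CPM.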

How the results depend on the processing

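Calls between cell types held under nearly all settings: 39 of 41 members with vehicle and 40 of 42 with ox-LDL were called in all 18 alternatives, and no called value reversed. With vehicle, members called lower (1) numbered 3 with total counts, 2 with RLE factors and 3 with DESeq2, and 1 to 3 with a library left out. With ox-LDL, members called lower (3) numbered 5 with total counts, 5 without the 4 neutrophil-high monocyte libraries, and 3 to 5 with a library left out. The count called higher was 38 to 41 with vehicle and 38 to 39 with ox-LDL when a library was left out. For ox-LDL in monocytes (0), DESeq2 called 3 higher, limma voom 1, the fit over all 4 groups 6 and the covariate fit 3, the fit over all 4 groups called 1 lower, and leaving out a library gave 0 to 0. For ox-LDL in macrophages (2 higher, 1 lower), total counts gave 1 higher, RLE factors 1, DESeq2 6 and the fit over all 4 groups 0 higher and 0 lower, and leaving out a library gave 0 to 2 higher and 0 to 1 lower. In the difference of effects (0), 1 was higher without the 4 libraries. The cause of these changes was not tested. The hydrolase to pump ratio between cell types was 0.43 with vehicle from mean log2 CPM, and 1.09 with vehicle and 1.15 with ox-LDL without Lgmn and Atp6ap1. For ox-LDL in monocytes the ratio differed by -0.30 from mean log2 CPM, whereas its means from summed TPM were -0.20 with ox-LDL and -0.16 with vehicle. In macrophages the means from summed TPM were 0.39 with ox-LDL and 0.53 with vehicle. Over all genes, ox-LDL in monocytes called 4 higher and 0 lower by edgeR, 88 and 63 by DESeq2, 150 and 109 in the fit over all 4 groups and 85 and 37 with the covariate. In macrophages edgeR called 142 and 200, DESeq2 305 and 393, and the fit over all 4 groups 6 and 74. The difference of effects had 1 higher and 10 lower by edgeR, 18 and 44 by DESeq2, and 85 and 44 without the 4 libraries. Libraries were not paired, because the labels give no pairing and the groups share no replicate numbers. No fit took the monocyte libraries low in erythroid markers as a set. Depth limits few values, since the lowest count of a member was 96.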

Other observations

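Within groups of macrophages, libraries differed in several members at once, for which the labels give no reason. Among ox-LDL macrophages, replicates G and H had the highest Psap (42024 and 41710 CPM), Gaa (628 and 614 CPM), Naglu (728 and 686 CPM) and Atp6v0d2 (473 and 474 CPM). The same libraries had the lowest Arsb, at 28.5 and 27.5 CPM. Replicates I and J had the highest Arsb (44.0 and 44.1 CPM) and Atp6v0a1 (846 and 783 CPM). Among vehicle macrophages, replicates C and D had the highest Atp6v0a1 (756 and 754 CPM), Gla (249 and 243 CPM) and Arsb (49.5 and 45.4 CPM). These genes and libraries were picked after their values were seen, so the pattern carries no test.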
